A study of Mus musculus with 26 samples.

Results

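The comparison described here set organoids given prostaglandin E2 (PGE2) against organoids given vehicle, 1 day after treatment began. It took the 3 libraries labelled PGE2 at day 1 and the 3 labelled vehicle at day 1 out of 26 libraries in the series, and all 14850 genes with enough counts to be tested. The organoids are small hollow epithelial structures grown in Matrigel from crypts isolated from the intestine of C57BL/6 mice, so they hold epithelium without the stroma, immune cells and microbes of the gut. All groups shared a medium with EGF, Noggin, R-spondin, N-acetylcysteine, the GSK3 inhibitor CHIR-99021, the kinase inhibitor Y-27632, B27 and N2, per the labels' protocols. Vehicle organoids received the solvent alone, which the labels do not name, and PGE2 organoids received 50 nM. The labels call the agent PGE2, whereas the design text speaks of a dimethyl analogue, so "PGE2" stands below for whichever was used. Libraries of vehicle and PGE2 at day 3, and of arachidonic acid (AA, 25 µM) at days 1 and 3, with 3 libraries each, shared the model fit. Nothing in the labels tells whether the 3 replicates came from separate cultures or mice, so p-values measure the spread between these libraries, which may be technical.

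PGE2 is made from arachidonic acid by a cyclooxygenase and a terminal synthase, acts on the EP receptors, and is inactivated after uptake by the dehydrogenase HPGD. The EP2 and EP4 receptors raise cyclic AMP, which activates protein kinase A and the transcription factor CREB, and EP4 signalling can also activate the EGF receptor and YAP. In the intestine PGE2 is known for its part in epithelial repair, fluid secretion and tumour growth.

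Total counts per library were 14110917, 12930535 and 12894671 with vehicle and 13898180, 10324861 and 12435506 with PGE2. Mitochondrial ribosomal RNA took 9.15% to 10.3% of counts with vehicle and 7.99% to 8.92% with PGE2, while 2 rRNA-like loci together took 7.58% to 8.78% with vehicle and 8.65% to 12.1% with PGE2. Levels are given as CPM, each library's counts scaled to a common size with TMM factors, and they are not corrected for gene length, so they are compared between groups and not between genes. The first principal component of the 18 libraries, with 55% of the variance, placed the vehicle libraries of day 1 at -37.5 to -36.2 and the PGE2 libraries of day 1 at 36.1 to 36.8. Epithelial markers were abundant, with a summed level of 8970 to 9990 CPM with vehicle and 15900 to 16600 CPM with PGE2.

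Within 1 day PGE2 was followed by a wide change in expression. By edgeR's quasi-likelihood test, 8306 of 14850 genes (55.9%) passed an adjusted p of 0.05, of which 4015 (27.0% of those tested) were higher and 4291 (28.9%) lower. A change of at least 2-fold was more often a rise, with 1420 genes higher and 739 lower. For 9329 genes (62.8%) the 3 PGE2 libraries did not overlap the 3 vehicle libraries. The median log2 fold change over all genes tested was -0.02. "Rose" and "fell" are used below only for genes that passed this test, and every count over a gene list is to be read against these shares. A gene nearly silent with vehicle could pass the count filter through other groups and could hardly fall. Lists that hold such genes therefore lean toward rises. In bulk RNA, fewer cells of a type and less RNA per cell cannot be told apart.

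The genes that handle PGE2 itself shifted on both sides of the pathway. Ptger4, which encodes the EP4 receptor, was at 16.6, 17.4 and 20.3 CPM with vehicle and at 27.8, 23.8 and 29.9 CPM with PGE2. All PGE2 libraries lay above all vehicle libraries, a rise of 1.51-fold (log2 fold change 0.59 ± 0.09, SE, n = 3 per group, edgeR adjusted p = 1.27e-06). Ptger4 was the only one of 9 prostanoid receptor genes with enough counts to be tested. Over the 3 vehicle and the 3 PGE2 libraries, Ptger1 had 5 and 12 counts and Ptger3 had 2 and 5 counts, and Ptger2, the EP2 receptor gene, had 0 in all 6, where up to 3 counts could have been missed.

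Ptgs2, the inducible cyclooxygenase, was at 3.29, 4.15 and 2.89 CPM with vehicle and at 40.7, 34.4 and 35.5 CPM with PGE2, a rise of 10.7-fold (3.42 ± 0.12, adjusted p = 5.92e-21). Ptges, the inducible terminal synthase, rose from 0.151 ± 0.0791 to 1.58 ± 0.0874 CPM (SD, n = 3), on 6 counts with vehicle and 55 with PGE2. Slco2a1, the prostaglandin importer, rose from 1.63 ± 0.116 to 10.7 ± 0.180 CPM. The dehydrogenase gene Hpgd went the other way, from 15.3, 15.5 and 15.9 CPM to 6.02, 8.45 and 8.70 CPM, and its groups did not overlap (-1.03 ± 0.15, adjusted p = 4.29e-06). Of 13 tested genes of prostaglandin synthesis and breakdown, 5 rose, 5 fell and 3 were not called (median -0.24), so the list as a whole had no single direction.

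Genes known to respond to cyclic AMP through CREB were mostly higher. Of 26 tested, 18 rose, 3 fell and 5 were not called, with a median log2 fold change of 0.93 against -0.02 over all genes. Nr4a1 (ENSMUSG00000023034.7), an immediate-early nuclear receptor, was at 5.21, 6.30 and 4.76 CPM with vehicle and at 34.2, 32.7 and 32.1 CPM with PGE2 (2.60 ± 0.10, adjusted p = 5.71e-20). Dusp1, a phosphatase that switches off MAP kinases, went from 2.00, 1.46 and 2.34 CPM to 29.3, 31.3 and 28.7 CPM, a rise of 15.3-fold. Fos, the AP-1 subunit, went from 17.2, 18.1 and 16.4 CPM to 71.4, 70.5 and 75.4 CPM. The groups did not overlap for any of these genes, and the PGE2 libraries lay close together.

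Phosphodiesterases, which break down cyclic AMP and so feed back on the pathway, were among the risers. Pde4d rose from 17.2 ± 1.20 to 30.0 ± 2.00 CPM and Pde4b from 0.151 ± 0.00711 to 1.14 ± 0.101 CPM. Pde10a had 3 counts with vehicle and 80 with PGE2, a ratio of 30.6 with an exact 95% interval of 10.1 to 152 for counting error. Sik1, a kinase that restrains CREB coactivators, rose from 18.8 ± 0.598 to 33.9 ± 1.97 CPM. Crem, which gives rise to the CREB repressor ICER, was not called, at 4.08 ± 0.595 and 5.22 ± 0.497 CPM (0.36 ± 0.19, adjusted p = 0.0979). The fallers included Creb1 itself, from 98.3 ± 2.59 to 73.6 ± 2.17 CPM, while Ppargc1a, a classical CREB target in liver, also fell but with overlapping groups, at 4.86, 4.30 and 4.92 CPM against 2.82, 4.38 and 2.68 CPM.

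The promoters of 4 of these risers are shown because CREB binds the cyclic AMP response element (CRE), whose full form is TGACGTCA and whose short form TGACG lies within it. Each line gives 120 bases of the RefSeq promoter on GRCm38.p6, read on the gene's own strand, with the motif in capitals in either orientation. Areg (chr5:91139482-91139601, plus strand) and Dusp1 (chr17:26508552-26508671, minus strand) hold the full form, and Nr4a1 (chr15:101266748-101266867, plus strand) and Fos (chr12:85473766-85473885, plus strand) hold the short one.
Areg: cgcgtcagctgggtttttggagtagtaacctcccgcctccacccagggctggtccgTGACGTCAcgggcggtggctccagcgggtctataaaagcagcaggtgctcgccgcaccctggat
Dusp1: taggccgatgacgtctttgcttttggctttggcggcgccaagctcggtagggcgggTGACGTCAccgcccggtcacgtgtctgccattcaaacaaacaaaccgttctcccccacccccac
Nr4a1: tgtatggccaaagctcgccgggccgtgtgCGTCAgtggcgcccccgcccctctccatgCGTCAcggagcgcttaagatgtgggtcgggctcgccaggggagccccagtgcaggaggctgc
Fos: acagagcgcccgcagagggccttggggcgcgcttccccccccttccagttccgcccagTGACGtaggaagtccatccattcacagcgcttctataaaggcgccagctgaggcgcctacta
The full element in Areg begins 61 bases before the annotated start site and that in Dusp1 143 bases before it. Motifs were sought within 300 bases around the start site, on both strands. A gene was counted where any of its listed promoters held the motif. The full form stood in 2 of the 16 CREB-list risers with a promoter in the table (12.5%), against 3.59% of the 10171 tested genes with a promoter. The short form stood in 13 of 16 (81.2%), against 34.8%, and in 2 of the 3 fallers of the list (66.7%). A match describes the letters only, and the list holds known CREB targets, so a higher share can follow from how it was chosen.

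Ligands of the EGF receptor, which drive epithelial growth beside the EGF already in the medium, rose together with the receptor. Areg, amphiregulin, was at 53.4, 51.6 and 55.7 CPM with vehicle and at 240, 234 and 234 CPM with PGE2 (2.14 ± 0.06, adjusted p = 5.29e-22). Ereg, epiregulin, went from 12.6, 12.4 and 11.3 CPM to 58.5, 58.2 and 60.2 CPM, a rise of 4.86-fold. Egfr went from 63.6, 65.4 and 64.8 CPM to 178, 170 and 178 CPM, and none of the 3 genes had overlapping groups. Hbegf and Tgfa, further ligands, rose by 1.41 ± 0.07 and 1.37 ± 0.06 on the log2 scale. Of 24 tested genes of this family and its feedback, 15 rose, 4 fell and 5 were not called (median 0.43). The feedback genes did not move as a block: Dusp6, a phosphatase of ERK, rose from 21.7 ± 1.87 to 70.8 ± 1.70 CPM, Etv5, a transcription factor downstream of ERK, fell from 29.9 ± 0.330 to 14.9 ± 0.957 CPM, and Lrig1, which promotes degradation of ERBB receptors, fell from 223 ± 3.61 to 115 ± 7.29 CPM.

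Targets of YAP and TEAD, the transcription pair that responds to stretch and wounding, also rose. Of 18 tested, 15 rose, 2 fell and 1 was not called, with a median of 1.69. Ccn2, a matrix-bound growth factor, was at 6.64, 6.38 and 4.53 CPM with vehicle and at 49.0, 48.4 and 45.4 CPM with PGE2, a rise of 8.09-fold (3.02 ± 0.10, adjusted p = 1.53e-21). Ajuba, a scaffold protein that restrains the LATS kinases, went from 44.7, 41.4 and 44.2 CPM to 194, 194 and 177 CPM. Edn1, the peptide endothelin 1, went from 15.02 ± 1.81 to 69.0 ± 3.29 CPM. Ankrd1, an ankyrin repeat protein, had 3 counts with vehicle and 108 with PGE2, a ratio of 41.3 with an exact 95% interval of 13.8 to 204. The fallers were Gadd45a, a growth arrest protein (-0.77 ± 0.12), and Birc5, the mitotic protein survivin (-0.16).

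TEAD factors bind GGAATG, and 2 promoters that hold it are shown in the same way, Ankrd1 (chr19:36119905-36120024, minus strand) and Ajuba (chr14:54577763-54577882, minus strand), each as 120 bases with the motif in capitals.
Ankrd1: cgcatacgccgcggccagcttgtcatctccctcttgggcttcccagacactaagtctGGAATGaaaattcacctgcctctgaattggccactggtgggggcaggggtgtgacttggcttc
Ajuba: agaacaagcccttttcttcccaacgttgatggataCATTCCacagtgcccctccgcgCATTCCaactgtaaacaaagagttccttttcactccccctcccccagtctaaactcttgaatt
The motif stood in 9 of 13 YAP-list risers with a promoter in the table (69.2%) and in 0 of 2 fallers. Over all tested genes with a promoter the share was 14.4%. The list holds known targets, so a higher share can follow from how it was chosen and says nothing about PGE2. Ajuba holds it in 2 places in this window.

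**Figure D1:**
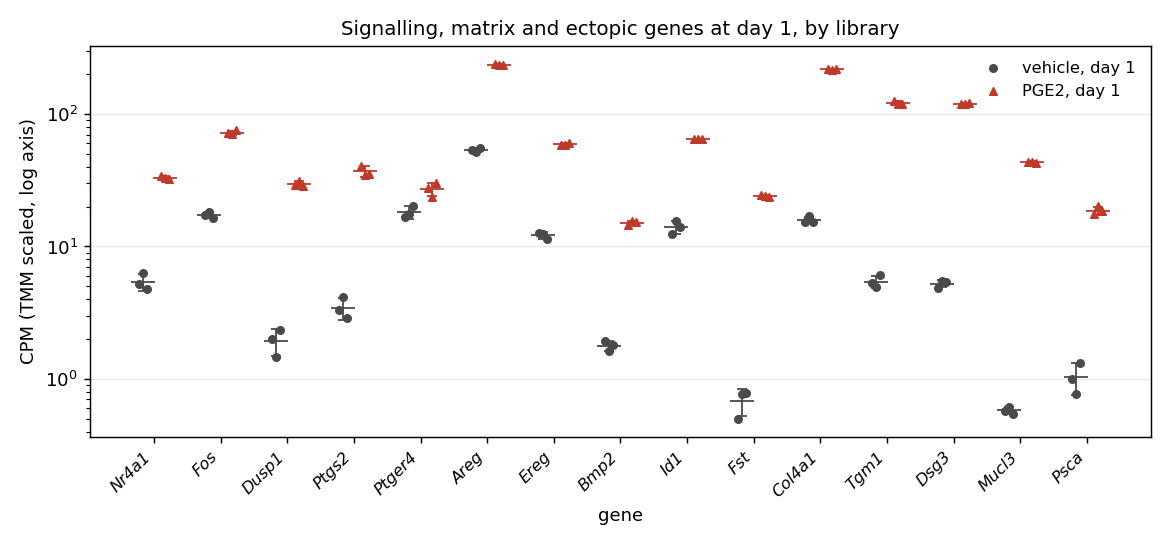
CPM of each library at day 1, on a log axis, for signalling, matrix and ectopic genes that rose. Black circles are vehicle libraries and red triangles PGE2 libraries (n = 3 each), with the group mean as a line and the SD as a bar. The PGE2 libraries lie above the vehicle libraries in every gene shown, from Ptger4 at 18.1 and 27.2 CPM to Mucl3 at 0.578 and 43.4 CPM.

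Secreted signals of the BMP and activin family changed, although the medium held the BMP antagonist Noggin. Of 15 tested genes, 9 rose, 5 fell and 1 was not called (median 1.32). Bmp2, a BMP ligand, was at 1.93, 1.61 and 1.80 CPM with vehicle and at 14.5, 15.6 and 15.2 CPM with PGE2 (3.07 ± 0.14, adjusted p = 4.36e-18). Id1, a direct BMP target and inhibitor of basic helix-loop-helix factors, went from 12.4, 15.4 and 14.1 CPM to 64.5, 64.7 and 65.1 CPM. Fst, follistatin, which traps activin, went from 0.5, 0.769 and 0.781 CPM to 24.3, 23.9 and 23.7 CPM, a rise of 34.8-fold. All 3 were separate between groups. Bmp7, another ligand, fell from 13.97 ± 0.902 to 5.23 ± 0.668 CPM.

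Notch ligands divided by type. The Delta ligand Dll1 was at 56.4, 56.3 and 54.9 CPM with vehicle and at 17, 16.4 and 16.0 CPM with PGE2, a fall of 3.39-fold (-1.76 ± 0.07, adjusted p = 1.38e-19), and Dll4 fell from 16.0 ± 1.23 to 7.23 ± 0.691 CPM. The Jagged ligands rose, Jag1 from 47.0 ± 2.98 to 91.9 ± 1.31 CPM and Jag2 from 18.2 ± 0.969 to 57.7 ± 1.97 CPM. Readouts of Notch activity fell, Nrarp, a feedback inhibitor, from 15.9 ± 1.03 to 6.01 ± 0.215 CPM and Hes1, a repressor of secretory fate, from 50.4 ± 4.27 to 36.9 ± 2.12 CPM. Over the pathway 5 of 14 genes rose, 8 fell and 1 was not called (median -0.80).

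Wnt genes moved both ways under a constant GSK3 inhibitor: 6 of 17 rose, 7 fell and 4 were not called (median -0.14). Axin2, the feedback inhibitor used as a readout of beta-catenin, was at 193, 195 and 191 CPM with vehicle and at 79.1, 74.7 and 79.3 CPM with PGE2. Ccnd1, cyclin D1, went up from 290, 297 and 316 CPM to 607, 595 and 595 CPM (0.99 ± 0.05, adjusted p = 8.48e-17). Among the fallers, Wnt9b went from 3.08 ± 0.421 to 0.109 ± 0.129 CPM, and Sfrp5, a secreted Wnt antagonist, had 78 counts with vehicle and 3 with PGE2, a ratio of 22.6 with an exact 95% interval of 7.47 to 112.

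Markers of the crypt base stem cell were mostly lower, and 16 of 21 fell, 3 rose and 2 were not called (median -0.95). Mex3a, an RNA-binding protein of crypt progenitors, was at 18.5, 18.6 and 19.1 CPM with vehicle and at 4.65, 4.69 and 4.68 CPM with PGE2. Nrn1, a membrane-anchored neuritin, went from 8.21, 7.99 and 7.89 CPM to 2.13, 2.09 and 2.51 CPM. Both were separate between groups. The risers were Cd44, a hyaluronan receptor that is also a Wnt target, from 224 ± 4.79 to 419 ± 14.96 CPM, the E3 ligase Rnf43 (0.34) and the kinase Cdk6 (0.17), while Ascl2 (-0.27) and Sox9 (0.12), transcription factors of crypt progenitors, were not called.

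Genes of fetal or regenerating epithelium rose in 21 of 23 cases and none fell (median 2.35). Gja1 (0.65) and Ly6e (0.12) were not called. Anxa1, an annexin of resolving inflammation, was at 82.1, 83.0 and 92.9 CPM with vehicle and at 674, 667 and 662 CPM with PGE2. Its PGE2 libraries all lay above its vehicle libraries. Basp1 rested on 3 counts with vehicle and 22 with PGE2, a ratio of 8.42 with an exact 95% interval of 2.53 to 43.9. Such a member could hardly fall, so the count for this list leans toward rises.

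Genes known from skin and other layered epithelia were higher as well. Of 25 tested genes of stratified epithelium and its cornified envelope, 23 rose and 0 fell (median 2.35). Another 21 of the 46 listed genes had too few counts to test. A gene could pass the count filter through groups where it was higher, so members nearly silent with vehicle could hardly fall. The count and the median therefore lean toward rises. Tgm1, the transglutaminase that cross-links the envelope, was at 5.29, 4.92 and 6.09 CPM with vehicle and at 126, 119 and 120 CPM with PGE2, a rise of 22.4-fold (4.49 ± 0.09, adjusted p = 2.97e-27). Dsg3, a desmosomal cadherin of skin, went from 4.86, 5.46 and 5.39 CPM to 120, 119 and 121 CPM. Cnfn, cornifelin, had 5 counts with vehicle and 318 with PGE2 and reached 11.1, 7.30 and 8.61 CPM. Krt14, a basal keratin, stayed low at 0.147 ± 0.120 and 1.12 ± 0.329 CPM, although its rise passed the test. Values for the Sprr2 and Krt6 genes are uncertain because near-identical copies can share reads.

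Of 17 tested genes of gastric epithelium, 11 rose, 2 fell and 4 were not called (median 2.78). The median was 2.69 over 15 genes, with Gkn2 at its lower bound and without Muc5ac and Muc6, which had 0 vehicle counts. Members nearly silent with vehicle passed the count filter through other groups and could hardly fall, so both medians lean toward rises. Psca, a surface antigen of stomach and prostate, was at 1.00, 0.769 and 1.33 CPM with vehicle and at 17.5, 20.1 and 18.4 CPM with PGE2. Cldn18, a claudin of stomach and lung, went from 1.60 ± 0.223 to 16.8 ± 1.14 CPM. Tff1, a trefoil peptide of gastric pits, went from 0.454 ± 0.237 to 5.48 ± 0.547 CPM. Gkn2, a gastrokine, had 0 counts with vehicle and 21 with PGE2, at least 8.04-fold higher against 3 counts over the group. The mucins that define gastric surface and gland cells stayed near 0, with 0 and 2 counts for Muc5ac and likewise for Muc6. Gkn3 fell, from 46 counts to 6.

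Components of the basement membrane and of its receptors rose broadly. Of 14 tested laminins, type IV collagens and partners, 13 rose and 1 fell (median 1.79). Col4a1 (ENSMUSG00000031502.11) was at 15.3, 16.99 and 15.4 CPM with vehicle and at 220, 216 and 218 CPM with PGE2, a rise of 13.7-fold (3.78 ± 0.06, adjusted p = 2.05e-28). Its partner chain Col4a2 went from 14.9, 16.1 and 14.5 CPM to 223, 228 and 222 CPM. Both chains were separate between groups. Hspg2, perlecan, was the faller, from 27.8 ± 5.05 to 15.5 ± 1.46 CPM.

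Of 13 integrins and hemidesmosome genes, 11 rose, 1 fell and 1 was not called (median 0.71). Itga3, which pairs with beta 1 to bind laminin, rose from 106 ± 1.14 to 305 ± 4.13 CPM, and Itgb4, of the hemidesmosome, from 213 ± 12.7 to 536 ± 14.5 CPM. Among matrix proteases and the plasminogen system, 14 of 18 rose, 2 fell and 2 were not called (median 1.43). Plaur, the urokinase receptor, was at 35.8, 37.4 and 35.8 CPM with vehicle and at 153, 151 and 153 CPM with PGE2. The activators Plat and Plau rose by 2.76 ± 0.11 and 1.87 ± 0.15 on the log2 scale. Tfpi2, a Kunitz protease inhibitor, fell from 2.93 ± 0.990 to 0.510 ± 0.316 CPM.

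Actin genes rose in 21 of 24 cases and none fell (median 0.96). Actb, beta actin, was at 2935, 2941 and 3081 CPM with vehicle and at 7410, 7436 and 7532 CPM with PGE2, the largest gain in CPM among the rising genes named by the selection rule. Cnn2, a calponin, rose 4.63-fold. All 6 keratins of simple epithelium rose, among them Krt8 from 2170 ± 173 to 4570 ± 98.9 CPM, Krt19 from 1711 ± 140 to 4166 ± 149 CPM and Krt23 from 40.1 ± 4.54 to 324 ± 6.64 CPM. Among claudins and tight junction genes, 10 of 16 rose, 2 fell and 4 were not called (median 0.34).

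Genes of the mitochondrial steps of the urea cycle fell. Cps1 (ENSMUSG00000025991.8), which makes carbamoyl phosphate in mitochondria, was at 1181, 1178 and 1203 CPM with vehicle and at 83.3, 82.5 and 82.9 CPM with PGE2, a fall of 14.3-fold (-3.84 ± 0.07, adjusted p = 5.86e-28). Otc, which joins it to ornithine, went from 57.4, 55.8 and 54.3 CPM to 9.15, 9.91 and 8.87 CPM. Nags, which makes the activator of CPS1, went from 27.8, 29.6 and 31.9 CPM to 6.79, 6.36 and 7.69 CPM. These 3 mitochondrial enzymes fell without overlap between groups. Oat, ornithine aminotransferase, and Arg2, mitochondrial arginase, fell 4.13-fold and 3.53-fold, and the arginine importer Slc7a2 fell from 5.25 ± 0.710 to 0.580 ± 0.233 CPM. The cytosolic enzyme Ass1 rose slightly, from 12.2 ± 0.869 to 15.2 ± 0.881 CPM. Of 21 genes of arginine, polyamine and nitric oxide metabolism, 6 rose, 12 fell and 3 were not called (median -0.17), and 9 of the falls were at least 2-fold.

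Targets of the stress-response factor ATF4 and enzymes of serine and folate metabolism were lower in 18 of 25 cases, with 3 higher and 4 not called (median -0.68). Aldh1l2, a mitochondrial folate enzyme, was at 25.1, 24.4 and 21.5 CPM with vehicle and at 2.82, 1.98 and 3.01 CPM with PGE2, a fall of 8.90-fold (-3.15 ± 0.16, adjusted p = 3.58e-16). Cth, which makes cysteine from cystathionine, fell from 121 ± 4.16 to 28.0 ± 2.17 CPM, and Trib3, a pseudokinase that feeds back on ATF4, from 12.4 ± 1.33 to 3.51 ± 0.442 CPM. Atf4 itself fell (-0.68). Cbs, which makes cystathionine, rose from 8.22 ± 0.575 to 19.6 ± 1.48 CPM. The amino acid response element recognised by ATF4 was searched as TGATGNAA. It stood in 5 of 14 fallers of this list with a promoter in the table (35.7%) and in 1 of the 3 risers (33.3%). Over all tested genes with a promoter the share was 2.74%. The list includes known ATF4 targets, so a higher share can follow from how it was chosen. Chac1, a glutathione-degrading enzyme, fell from 15.1 ± 2.58 to 5.55 ± 0.777 CPM. Its promoter (chr2:119350993-119351112, plus strand) holds the element in the reverse orientation, in capitals.
Chac1: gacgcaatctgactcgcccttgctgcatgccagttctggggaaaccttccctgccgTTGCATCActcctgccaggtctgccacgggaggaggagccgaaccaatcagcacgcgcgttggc

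Lipid genes were lower on both the synthetic and the oxidative side. Of 20 genes of fatty acid synthesis and desaturation, 14 fell, 2 rose and 4 were not called (median -0.34). Fads1, the delta-5 desaturase that completes arachidonic acid synthesis, was at 193, 197 and 203 CPM with vehicle and at 38.6, 40.1 and 35.1 CPM with PGE2. Of 33 genes of fatty acid oxidation and PPAR targets, 21 fell, 8 rose and 4 were not called (median -0.36). Slc27a2, a fatty acid importer and acyl-CoA synthetase, went from 36.5, 34.8 and 36.3 CPM to 4.65, 5.84 and 4.93 CPM, while the PPAR target Angptl4, an inhibitor of lipoprotein lipase, rose from 23.0 ± 0.378 to 71.1 ± 2.53 CPM. Cholesterol synthesis and uptake genes fell in 18 of 29 cases and rose in 4 (median -0.25).

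Nuclear genes of the respiratory chain fell in 28 of 30 cases and none rose, each by a small amount (median -0.52). This direction held with every scaling tried. Glycolytic and hypoxia-responsive genes were divided, with 14 of 27 higher and 7 lower (median 0.24). The listed glycolytic gene Aldoa was left out because its symbol was shared between identifiers, not for low counts. It had 23873 counts over the vehicle libraries and 24164 over the PGE2 libraries. Hk1, a hexokinase, was at 12.8, 15.8 and 14.5 CPM with vehicle and at 69.9, 76.0 and 65.8 CPM with PGE2, and Pdk1, which restrains entry of pyruvate into mitochondria, fell from 76.2 ± 2.93 to 23.0 ± 0.755 CPM. Among NRF2 and glutathione genes 12 of 25 rose, 6 fell and 7 were not called (median 0.13).

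Epithelial defence genes changed in both directions. Pigr, the receptor that carries IgA into the lumen, was at 616, 622 and 666 CPM with vehicle and at 75.6, 79.5 and 82.5 CPM with PGE2, a fall of 8.01-fold (-3.00 ± 0.06, adjusted p = 4.93e-27). Dmbt1, a scavenger receptor protein of mucus, went from 289, 288 and 296 CPM to 21.5, 21.8 and 21.99 CPM. Nlrp6, an inflammasome sensor, fell from 217 ± 12.6 to 46.9 ± 1.33 CPM. The hydrogen peroxide producer Duox2 and the antiprotease Wfdc2 rose, from 3.27 ± 0.637 to 19.0 ± 2.04 CPM and from 3.21 ± 0.322 to 22.7 ± 1.87 CPM. Over the list 7 of 17 rose, 4 fell and 6 were not called (median 0.25). Chemokines and cytokines rose in 13 of 21 cases and fell in 5 (median 0.76). Among the fallers were Ccl28, from 38.4 ± 0.299 to 11.7 ± 0.951 CPM, and Ccl25, from 121 ± 1.69 to 52.2 ± 2.33 CPM, which recruit lymphocytes to mucosa. Interferon response genes rose in 8 of 13 cases (median 0.33), and antigen presentation genes rose in 3 and fell in 4 of 12 (median 0.05).

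**Figure D2:**
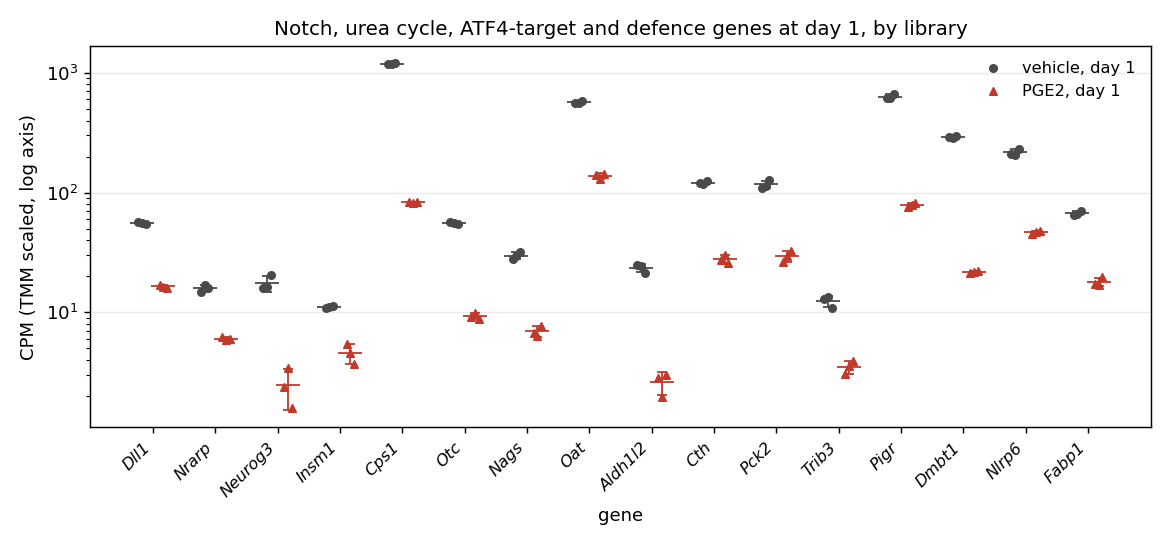
CPM of each library at day 1, on a log axis, for Notch, endocrine, urea cycle, ATF4-target, defence and lipid genes that fell. Black circles are vehicle libraries and red triangles PGE2 libraries (n = 3 each), with the group mean as a line and the SD as a bar. Every PGE2 library lies below every vehicle library in each gene shown, for example at 82.5 to 83.3 CPM against 1178 to 1203 CPM for Cps1.

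Transporters of salt and water were part of the response, 7 of 23 higher and 11 lower (median -0.15). Aqp4, a water channel, was at 75.1, 77.8 and 81.6 CPM with vehicle and at 7.70, 5.63 and 7.28 CPM with PGE2. Slc9a3, the apical sodium-proton exchanger of absorptive cells, went from 19.9, 20.9 and 19.5 CPM to 5.18, 5.42 and 5.94 CPM. Ano1, a calcium-activated chloride channel, went from 63.6, 63.2 and 67.6 CPM to 216, 218 and 230 CPM. The groups did not overlap for these genes. Cftr, the cyclic AMP-regulated chloride channel, fell by 0.15 on the log2 scale. Leaving out replicate 1 of the vehicle group (-0.12, edgeR adjusted p = 0.0877) or of the PGE2 group (-0.13, adjusted p = 0.0676) ended that call.

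Markers of differentiated cells gave no common direction at day 1. Of 19 goblet cell genes 12 rose, 2 fell and 5 were not called (median 0.46). Muc2, the gel-forming mucin, went from 8.14, 7.61 and 10.2 CPM to 53.8, 36.5 and 35.0 CPM, separate between groups but with a wide spread under PGE2 (2.29 ± 0.23, adjusted p = 1.12e-06). Sytl2, a regulator of mucus granule exocytosis, rose 5.76-fold, while Tff3 (0.13) and Fcgbp (0.17) were not called. Of 17 Paneth cell genes 8 rose, 4 fell and 5 were not called (median 0.57). Lyz1, lysozyme, was at 248, 242 and 287 CPM with vehicle and at 284, 239 and 255 CPM with PGE2, and its groups overlapped. Reg4 rose from 18.1 ± 1.35 to 67.9 ± 3.60 CPM and Itln1, a lectin, fell from 274 ± 28.6 to 123 ± 9.62 CPM. Values of the Defa genes are uncertain because their paralogs share sequence.

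Enteroendocrine genes changed in both directions, with 10 of 24 higher, 5 lower and 9 not called (median 0.46). Neurog3, the factor that starts the lineage, was at 15.9, 16.2 and 20.7 CPM with vehicle and at 2.36, 3.44 and 1.59 CPM with PGE2, a fall of 7.29-fold (-2.87 ± 0.19, adjusted p = 1.73e-12). Insm1, Neurod1, Pax4 and Rfx6, transcription factors that act after it, fell by 1.27, 1.31, 1.41 and 1.10 on the log2 scale. The 10 risers included Chga, chromogranin A, from 5.55 ± 0.762 to 10.2 ± 0.990 CPM, and Tph1, the serotonin-synthesis enzyme, from 0.680 ± 0.0891 to 3.30 ± 0.579 CPM. Of 8 tuft cell genes 2 rose: Avil, advillin, from 1.05 ± 0.403 to 10.2 ± 1.38 CPM, and the channel Trpm5, a call on 28 and 45 counts that was lost under several alternatives, for example with total counts alone (adjusted p = 0.0537).

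Enterocyte genes were divided too, with 13 of 34 higher, 15 lower and 6 not called (median -0.09). Krt20, a keratin of differentiated cells, was at 48.4, 50.0 and 51.2 CPM with vehicle and at 163, 160 and 157 CPM with PGE2, and Cdhr2, a brush border protocadherin, rose from 189 ± 5.46 to 576 ± 11.8 CPM. Fabp1, the liver-type fatty acid binding protein, fell from 65.6, 66.6 and 70.0 CPM to 17.4, 17 and 19.7 CPM, and the disaccharidase Sis from 324 ± 16.2 to 181 ± 5.71 CPM. Among transcription factors of intestinal identity 10 of 25 rose, 10 fell and 5 were not called (median -0.12). Vdr, the vitamin D receptor, fell 4.89-fold from 135 ± 4.12 to 27.6 ± 2.02 CPM, Nr5a2, LRH-1, fell from 33.4 ± 0.361 to 10.6 ± 0.716 CPM, and Cdx1, a caudal homeobox factor, from 129 ± 4.95 to 68.2 ± 7.18 CPM.

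Cell cycle genes changed in both directions at day 1. Of 34 replication and mitosis genes 16 fell, 4 rose and 14 were not called (median -0.13), and none reached 2-fold. Mki67, the cycling-cell antigen, was at 961, 965 and 869 CPM with vehicle and at 878, 876 and 858 CPM with PGE2, with overlapping groups and no call (-0.10 ± 0.06, adjusted p = 0.154). With total counts alone, or without vehicle replicate 3, Mki67 was called lower (-0.18 and -0.15). Of 20 G1 cyclin and CDK inhibitor genes 10 rose, 5 fell and 5 were not called (median 0.17), with 1 rise and 2 falls of at least 2-fold. Cdk4, the kinase partner of cyclin D, fell from 286 ± 26.8 to 143 ± 3.12 CPM, and Cdkn1a, the inhibitor p21, rose from 140 ± 4.05 to 216 ± 4.00 CPM. Among DNA methylation and Polycomb genes 11 of 28 fell, 1 rose and 16 were not called (median -0.15). Dnmt1, the maintenance methyltransferase, went from 274 ± 4.87 to 242 ± 6.57 CPM and Ezh2, the Polycomb methyltransferase, from 113 ± 7.75 to 93.1 ± 0.403 CPM, both small falls. Kdm6b, a demethylase that opposes Polycomb, was the riser, from 72.1, 74.6 and 54.1 CPM to 89.2, 93.1 and 88.8 CPM.

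**Figure D3:**
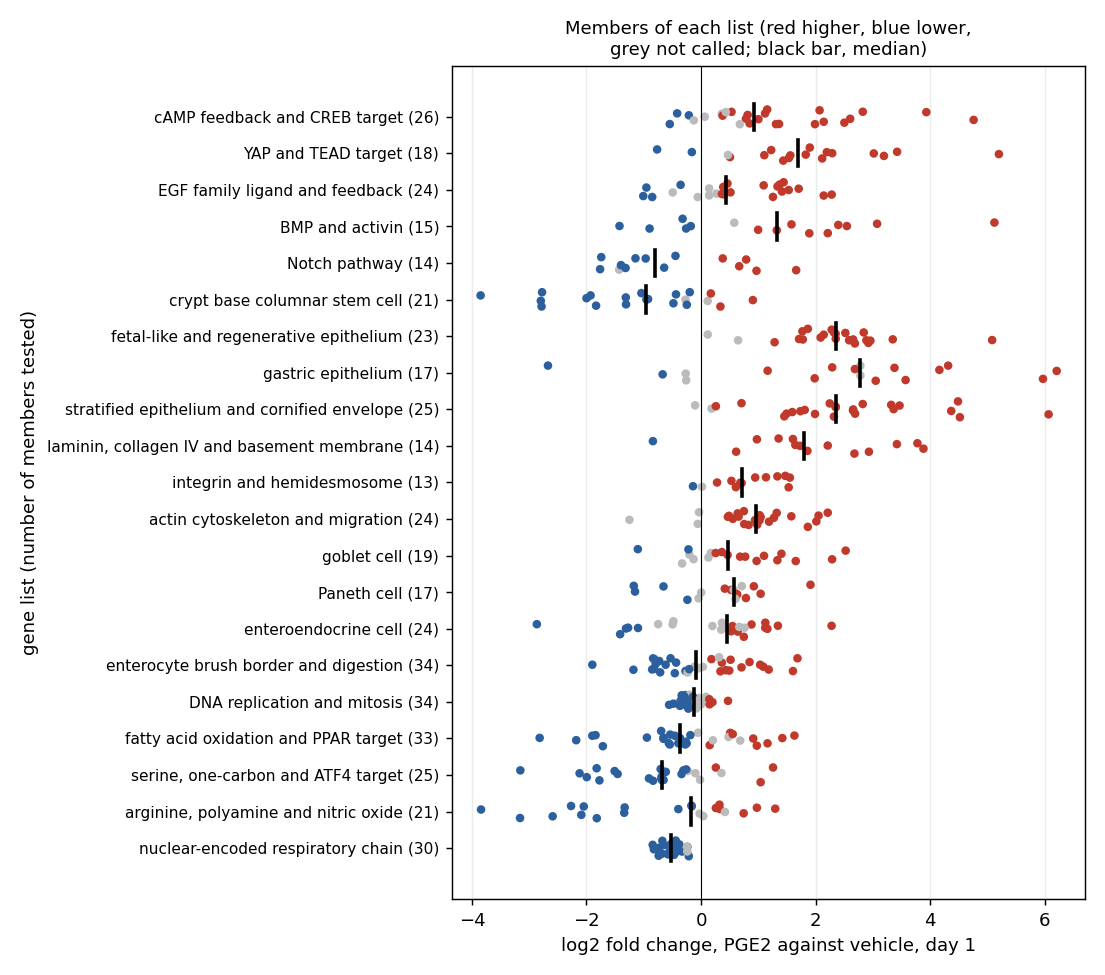
Log2 fold change of PGE2 against vehicle at day 1 for each tested member of selected gene lists, 1 point per gene, coloured by call, with the list median as a black bar. Fetal-like, stratified, gastric and basement membrane lists have medians of 1.79 to 2.78. The stem cell, ATF4-target and respiratory chain lists have medians of -0.95, -0.68 and -0.52. In lists such as the fetal-like, stratified and gastric ones, some members were nearly silent with vehicle and could hardly fall.

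Genes in this account were named by a rule on p and size, and the further list members described were chosen after their values were seen. The largest changes by the rule, which took genes of at least 5 CPM in the higher group, ran across many functions. Besides Mucl3, Cnfn, Fst and Il33, the rises were led by Cdh16, a cadherin of kidney tubules, from 0.643, 0.538 and 0.625 CPM to 23.0, 20.2 and 23.0 CPM, a rise of 36.2-fold. Mal, a proteolipid of apical membrane sorting, went from 0.353 ± 0.0945 to 10.5 ± 0.498 CPM, and Il5ra, an interleukin 5 receptor chain, from 0.750 ± 0.117 to 16.6 ± 0.704 CPM. Among the falls, Slc6a4, the serotonin transporter, fell from 17.6, 16.6 and 15.8 CPM to 1.52, 1.88 and 1.76 CPM. Aldh1b1, a mitochondrial aldehyde dehydrogenase of crypt cells, fell from 541, 561 and 600 CPM to 51.1, 53.9 and 51.5 CPM, and Vav3, a guanine nucleotide exchange factor, from 19.5 ± 1.55 to 1.47 ± 0.109 CPM. By difference in CPM, Ahnak, a very large scaffold protein, rose from 549 ± 23.8 to 3421 ± 121 CPM, and the nuclear RNA Malat1 from 1604 ± 131 to 4984 ± 149 CPM. Hook1, which links cargo to microtubules, fell from 902 ± 35.4 to 216 ± 3.27 CPM, and Eef1a1, an elongation factor, from 6573 ± 348 to 4981 ± 98.1 CPM.

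Markers of other cell types were at low levels in both groups, apart from Fbln1 of the fibroblast list. Of 14 fibroblast and smooth muscle markers 2 could be tested, Fbln1, from 85.9 ± 0.677 to 51.7 ± 2.54 CPM, and Pdgfrb, from 0.880 ± 0.0501 to 0.243 ± 0.167 CPM, and both fell. The list summed to 86.8 to 87.8 CPM with vehicle and 49.6 to 54.9 CPM with PGE2, nearly all from Fbln1, and Foxl1 had 0 counts. Immune markers summed to 9.30 to 11.6 CPM with vehicle and 9.62 to 10.7 CPM with PGE2, and 7 of 16 had 0 counts, Cd3e, Cd4, Cd8a and Nkg7 among them. All 3 tested immune markers were called: Cd68, a lysosomal protein of macrophages, rose from 1.48 ± 0.0842 to 3.55 ± 0.435 CPM, Csf1r, a macrophage growth factor receptor, rose on 4 and 17 counts, and Kit, a receptor of mast cells, fell from 8.21 ± 1.28 to 5.29 ± 0.0888 CPM. Endothelial and neural markers summed to 7.93 to 8.99 and 6.99 to 7.78 CPM, with 3 of 13 at 0 counts, Kdr and Emcn among them. Of 6 tested, 1 rose, 2 fell, both by at least 2-fold, and 3 were not called. Tie1, an endothelial receptor, was the riser, on 4 and 15 counts. Tubb3, a neural tubulin, was among the fallers, on 63 and 23 counts. The Tie1 call was lost without vehicle replicate 1 (log2 fold change 1.42) and without PGE2 replicate 1 (1.60), and the Tubb3 call without vehicle replicate 2 (-0.84) and without PGE2 replicate 3 (-0.91). The part of such cells in the results was not tested.

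At the dose of 25 µM, arachidonic acid gave at day 1 the following levels, which stand beside those of PGE2 without a comparison, since the doses differ and both share the vehicle libraries. Nr4a1 was at 13.7 ± 1.64 CPM with AA, 5.43 ± 0.790 with vehicle and 33.0 ± 1.05 with PGE2. Ptgs2 was at 23.6 ± 2.20, 3.44 ± 0.644 and 36.9 ± 3.38 CPM in the same order. Col4a1 was at 104 ± 3.44, 15.9 ± 0.953 and 218 ± 2.04 CPM, and Cps1 at 528 ± 2.84, 1187 ± 13.4 and 82.9 ± 0.423 CPM. Fabp1 was at 121 ± 13.6 CPM with AA, 67.4 ± 2.29 with vehicle and 18.04 ± 1.48 with PGE2, and Slc9a3 at 20.8 ± 1.25, 20.1 ± 0.708 and 5.51 ± 0.385 CPM. Plat was at 47.4 ± 1.83, 6.13 ± 0.249 and 41.4 ± 1.99 CPM. For Fabp1 the AA mean thus lay above vehicle and the PGE2 mean below it, while for the first 4 genes the AA mean lay between the other means.

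The response to PGE2 at day 1 was then tested against that at day 3, as the difference between each day's contrast with its own vehicle. The difference was called for 3592 of 14850 genes (24.2%), 1876 with a higher and 1716 with a lower value at day 3. Among genes that rose at day 1 it was lower for 983 and higher for 393. Among genes that fell at day 1 it was higher for 1055 and lower for 248. The difference contains the day 1 values, so the list counts below are to be read against these numbers.

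Signals and cytoskeleton were among the genes with lower responses at day 3. The difference was called lower for 14 of 18 YAP targets and higher for none, and for 17 of 24 actin genes against 1 higher, that of Mylk. Ccn1, a matrix-bound YAP target, had log2 fold changes of 1.56 at day 1 and 0.05 at day 3 (difference -1.51 ± 0.14, adjusted p = 6.84e-10). Dusp1 had 3.93 and 2.51, and Nr4a1 2.60 and 1.55. Over the 26 tested genes of the CREB list the difference was called lower for 8 and higher for 1, and most had no call. Replication and mitosis genes had a lower response at day 3 in 26 of 34 cases and a higher one in none.

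Enterocyte genes had a higher response at day 3 in 28 of 34 cases and a lower one in none. Alpi, intestinal alkaline phosphatase, had log2 fold changes of 0.43 at day 1 and 2.03 at day 3 (difference 1.60 ± 0.10, adjusted p = 4.56e-11), and Fabp1 had -1.90 and -0.27. Respiratory chain genes were less negative at day 3 in 23 of 30 cases, and genes of fatty acid oxidation were higher in 22 of 33 and lower in 1. Of 24 enteroendocrine genes 16 had a lower and 2 a higher response at day 3, and of 17 Paneth cell genes 14 had a lower and 1 a higher one. Goblet cell genes went the other way, with 8 of 19 higher and 2 lower, and of 8 tuft cell genes 1 was higher and 1 lower. Chgb, a granin, was at 15.04 ± 0.890 CPM with vehicle and 33.5 ± 1.47 CPM with PGE2 at day 1, and at 85.2 ± 6.24 and 20.7 ± 3.32 CPM at day 3, so that the vehicle level rose between days while the PGE2 level did not. Neurog3 and Insm1 were the 2 endocrine genes with a less negative response at day 3. Of 21 stem cell markers 3 had a higher and 6 a lower response at day 3. No call of a difference was made for Lgr5, Olfm4 or Axin2. Their log2 fold changes were -2.78, -3.85 and -1.31 at day 1 and -3.11, -4.02 and -1.31 at day 3.

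**Figure D4:**
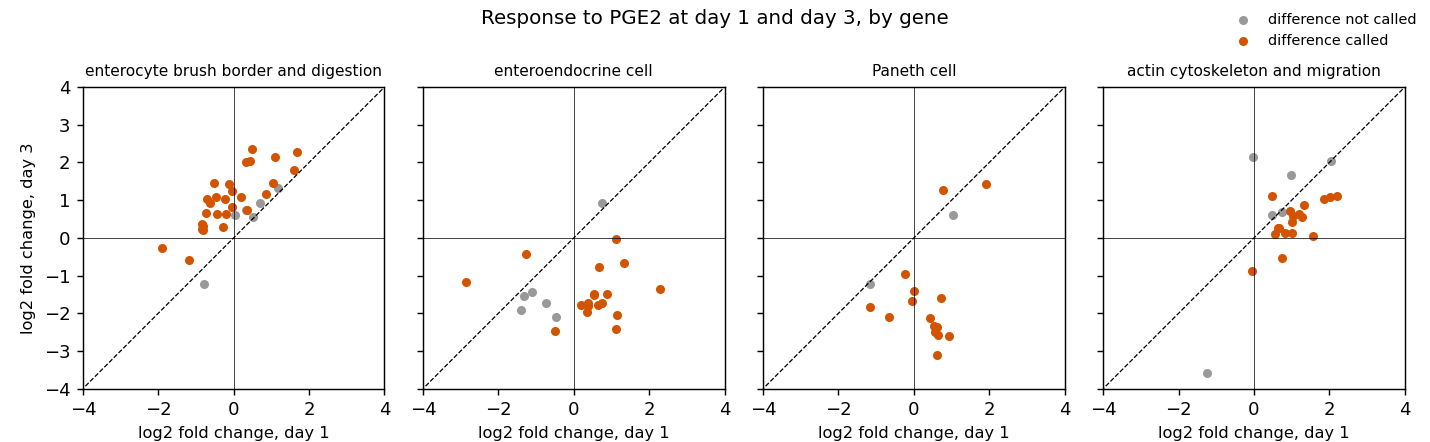
Log2 fold change of PGE2 against vehicle at day 1 (horizontal axis) and day 3 (vertical axis) for genes of 4 lists, 1 point per gene, with orange where the difference between days was called and grey where not. The dashed line marks equal responses. Enterocyte genes lie mostly above it, with 28 of 34 called higher at day 3, while enteroendocrine, Paneth and actin genes lie mostly below it, with 16 of 24, 14 of 17 and 17 of 24 called lower.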

How the data were processed

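RNA of crypt-derived organoids was extracted with Trizol and made into strand-marked libraries with a directional kit, per the labels' protocols. The authors deposited whole-number read counts per mouse Ensembl gene. The submitters' processing notes name cutadapt, STAR, DESeq2, limma 3.46 and the build GRCh38.p6, which is human although the identifiers are mouse. The sources used here do not name the counting program, its strand setting or the annotation release. Of 55385 identifiers, 55144 were given a symbol.

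Counts of the 18 libraries of days 1 and 3 were filtered with filterByExpr, scaled by TMM and fitted by group with edgeR 4.0.16 (R 4.3.3), using the quasi-likelihood test with 12 residual degrees of freedom and Benjamini-Hochberg adjusted p-values, called at 0.05. Errors after log2 fold changes are SE, derived as the absolute log2 fold change divided by the square root of the test's F. Errors after CPM are SD, with 3 libraries per group. Intervals on ratios of counts are exact and cover counting error only. Library sizes are given in the account of the results. Alternatives were other scalings and filters, the 6 libraries alone, DESeq2 1.42.0, a replicate block and leaving out each library.

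Named genes were the largest changes in log2 fold change (mean of at least 5 CPM in the higher group) and in CPM, the 4 smallest p-values of each list, a fixed panel, and the largest differences between days. Members and lists were chosen with earlier results of these data known. Promoters are RefSeq sequences on GRCm38.p6, found for 10171 of 14850 tested genes. The series' other libraries are not used here. Some genes are not reported here.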

Additional observations from a re-analysis of the deposited data

Results flagged for a closer look

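In edgeR's test of the difference between days, 17 of the named genes had responses to PGE2 that differed by at least 2 on the log2 scale, given here as day 3 minus day 1. Some of them were named for the size of this difference, so their number is no measure of how common it was. Their causes were not tested.

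Several Paneth and enteroendocrine genes had lower responses at day 3. Among Paneth cell genes, whose paralogs share sequence, the difference was -4.11 for AY761184, -3.85 for Defa3 and -3.52 for Defa30, and Defa30 was at 104 ± 11.03 CPM with vehicle and 17.2 ± 1.31 CPM with PGE2 at day 3. Among enteroendocrine genes it was -3.64 for Tph1, -3.54 for Tac1, -3.20 for Chgb and -2.36 for Chga. Scn3a, a sodium channel, differed by -3.75, and its rise at day 1 lost its call under several settings. Pbp2 differed by -2.23.

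A higher response at day 3 was found for Tek, an angiopoietin receptor, with 3.63, where PGE2 libraries of day 3 reached a mean of 35.1 CPM. It was 3.48 for Zg16, a lectin of goblet cell mucus, 3.35 for Gkn1, a gastrokine, and 3.18 for Mcpt2, a mast cell protease. Dmbt1 differed by 2.59, Pdgfrb by 2.27, Mylk3 by 2.17 and Slc6a4 by 2.08, and these 4 genes had fallen at day 1.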

How the results depend on the processing

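Of 2838 values of the 204 named genes under 14 alternatives, 2810 kept their direction and call. Counts of calls stayed within 1.5 times of those reported, except that a filter of at least 5 CPM, with 10868 genes tested, left 847 genes higher and 426 lower by at least 2-fold, against 1420 and 739. Lyz1, not called, turned to -0.074 with total counts alone and -0.016 with no filter, and ranged from -0.072 to 0.081 when single libraries were left out. Crem was called higher with the 6 libraries alone (0.39). Total counts alone gave 3378 higher and 5175 lower calls, and DESeq2 gave 7563 calls in all. Leaving out single libraries gave 7637 to 7909 calls at day 1 and 3094 to 3551 for the difference between days. The replicate block gave 8394 calls at day 1 and 3745 for the difference. Same-numbered libraries did not deviate together over all genes tested (correlations of -0.017 to -0.0066). No pairing by number was seen, although a shared effect in part of the genes could be missed. Genes with few counts, receptors included, are limited by depth.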

Other observations

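Gene families defined by symbol are described for day 1. They partly overlap the lists above, which hold 3 of the 12 annexins, 1 of the 9 S100 genes and 3 of the 13 serpins. The families were chosen after the data were seen and are described by counts only, against 27.0% higher and 28.9% lower over all genes. All 12 tested annexins, calcium-dependent membrane binders, rose (median log2 fold change 1.57), although 9 were called with total counts alone and 10 with no filter, with Anxa8 going from 7.05 ± 1.24 to 66.1 ± 2.20 CPM. Of 9 S100 calcium-binding genes 8 rose (median 1.76), with S100a6 going from 191 ± 16.2 to 655 ± 16.9 CPM. Of 13 serpins 10 rose and 0 fell (median 1.18).

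Of 12 UDP-glucuronosyltransferases, which conjugate bilirubin, steroids and drugs, 8 fell and 0 rose (median -0.81), among them Ugt2a3 (-2.24) and Ugt1a1 (-1.51). Of 34 tRNA synthetases 24 fell and 2 rose (median -0.29). Cytosolic ribosomal protein genes fell in 76 of 80 cases and rose in 0 (median -0.43), and mitochondrial ones in 64 of 77 (median -0.34). Values of ribosomal protein genes are uncertain because they share reads with many pseudogenes.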
